A study of Mus musculus with 24 samples.

Results

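Voltage-gated sodium and calcium channels were measured as mRNA through 31 genes of the 51733 in the deposited count table. They are the 14 sodium channel genes and 17 calcium channel genes whose symbols name a pore-forming or auxiliary subunit (Scn, Cacna1, Cacna2d and Cacnb) and that had a count in at least 3 of the 24 libraries. A sodium channel has a large alpha subunit that forms the pore and beta subunits that adjust its gating and its place in the membrane, and it carries the upstroke of the action potential. A calcium channel has an alpha1 subunit as its pore, an extracellular alpha2delta subunit and a cytoplasmic beta subunit that bring it to the surface. Its current triggers transmitter release at the terminal, bursts near rest, and signalling from dendrites to the nucleus. In the hippocampus different neurons use different members of each family.

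The libraries came from hippocampi of adult male C57BL/6 mice aged 2 to 3 months, pooled within each of 12 mice. The eIF2α cKI CaMKIIα mice (called cKI) carry non-phosphorylatable eIF2α alleles (eIF2α A/A) with a floxed transgene (fTg+), and Cre under the CaMKIIα promoter, which as background is active in excitatory forebrain neurons. The labels do not give the alleles behind the ribosome tag. The controls, labelled standard CaMKIIα-Cre+, carry the same Cre without the knock-in. Each mouse was either naive or taken 1 h after fear conditioning, and which of the 2 conditioning protocols in the labels was used for these mice is not given. Each mouse gave an IP, in which ribosomes with an HA tag (RiboTag) and the mRNA on them were pulled down with an anti-HA antibody, and an input of the lysate left over. The 8 groups (IP and input, cKI and control, 1 h and naive) held 3 mice each, so every group mean rests on 3 separate animals, and the IP and input of a mouse are 2 libraries of 1 animal.

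Total counts were 30587694 to 43530930 in the 12 IPs and 28810676 to 37732528 in the 12 inputs. Levels are CPM, counts divided by the library's total and scaled to a common size, with TMM-adjusted totals over all 24 libraries. They are not divided by transcript length, so levels of different genes are not compared. Shares within a subunit family, given below, are shares of counts. Only the share of the same gene is compared between IP and input. The summed level of 6 excitatory neuron markers was 11310 to 12660 CPM in IPs, against 5283 to 6206 CPM in inputs. That of 7 inhibitory neuron markers was 134 to 311 CPM in IPs, against 686 to 846 CPM in inputs, and that of 5 astrocyte markers was 84.3 to 136 CPM, against 1317 to 1488 CPM. No list was at 0 in the IP. Eif2s1, the gene of eIF2α, was higher in cKI inputs (log2 fold change 0.28, SE 0.04, adjusted p 0.00244) and cKI IPs (log2 fold change 0.22, SE 0.04, adjusted p 0.0323). The call in IPs was lost in 8 of 12 fits that each left out 1 IP, at adjusted p of up to 0.104, and with lane as a covariate, at 0.23 (adjusted p 0.600). The call in inputs was lost with lane as a covariate too, with values in the last section. The cKI inputs held 35.1 to 40.8 CPM of Eif2s1 and the control inputs 29.9 to 33.4 CPM, with no overlap. This is a difference in level and does not show the altered codon.

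A pair of libraries stood apart in the channel genes, as the plot of deviations by library shows. The IP of naive cKI mouse 2 was the lowest of the 12 IPs for 13 of 27 channel genes, against 19% of all genes tested in IP, and their median deviation was -0.26 on the log2 scale. The input of naive control mouse 2 was the lowest of the 12 inputs for 11 of 27, against 18.2% of all genes, with a median deviation of -0.13. Over all genes both libraries stood apart upward as well. That IP was the highest of 12 for 18.2% of all genes and that input for 33%. The pores Scn1a, Scn2a, Scn8a, Cacna1a, Cacna1b, Cacna1c, Cacna1d and Cacna1e and the subunits Scn3b and Cacna2d1 were lowest of their 12 in both libraries. Cacna2d1 stood at 53.6 CPM in that IP, against 82.6 to 113 CPM in the other 11, and at 57.8 CPM in that input, against 94.3 to 113 CPM. For some comparisons the count of channel genes called is also given without these libraries, together or singly. These are IP against input, genotype in naive IPs and in the mean over inputs, and the IP-to-input ratio by genotype. Other values include them wherever their group is compared, unless stated otherwise.

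**Figure D1:**
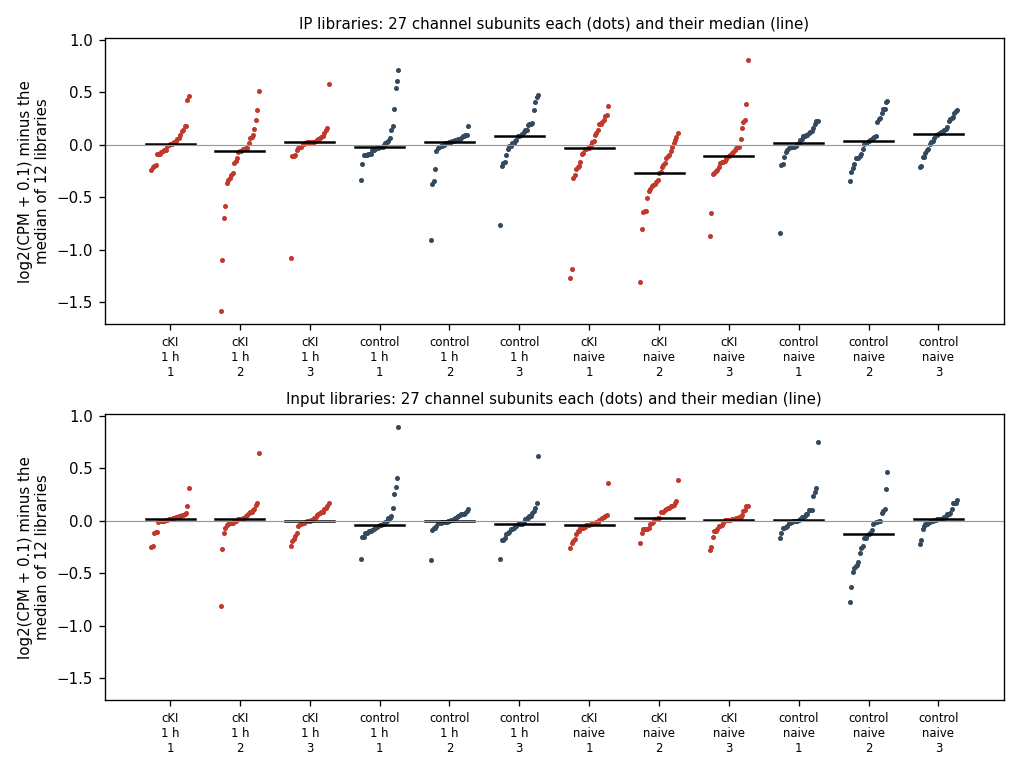
Deviation of each of 27 channel genes (dots) from its median over the 12 IPs (top) or 12 inputs (bottom), on a log2(CPM + 0.1) axis, for each mouse, with the median of the 27 as a line; red is cKI and blue-grey is control. The IP of naive cKI mouse 2 and the input of naive control mouse 2 sit lowest, at medians of -0.26 and -0.13.

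The IP was compared with the input to ask which channel mRNAs are on ribosomes of the Cre-expressing neurons. The sodium beta subunits Scn2b, Scn3b and Scn4b and 3 of 4 calcium beta subunits were higher in the IP, the tested L-type pores were lower, and the sodium pores split. Of the 27 genes that passed the filter on low counts, 14 were higher and 8 lower at an adjusted p under 0.05, and 5 did not pass. edgeR called 85.9% of all 17453 genes tested, 42.8% higher and 43.1% lower. How often IP and input ranges do not overlap was not counted over all genes. Statements of overlap below therefore describe single genes. Past a larger fold, 3 of 27 were over 1 on the log2 scale, against 2.05% of all genes, and 3 were under -1, against 25.1%. The median log2 fold change was 0.18 over the 27 and -0.01 over all genes tested. Lane 4 held inputs only, lane 6 IPs only, and lane 5 held 4 cKI IPs and 4 control inputs, so lane and fraction mostly cannot be told apart. With lane as a covariate, which rests on the 2 groups split between lanes, 16 of 27 passed (12 higher, 4 lower). Those that no longer passed were Scn1a at -0.37 (adjusted p 0.0992), Cacna1c at -0.27 (adjusted p 0.393), Cacna1e at 0.14 (adjusted p 0.449), Cacna1i at 0.21 (adjusted p 0.0858), Cacna2d2 at -0.52 (adjusted p 0.409) and Cacna2d4 at -0.65 (adjusted p 0.206). In bulk tissue, fewer cells of a type and less RNA per cell cannot be told apart, here and below. The plot of ratios by mouse shows 25 of them.

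**Figure D2:**
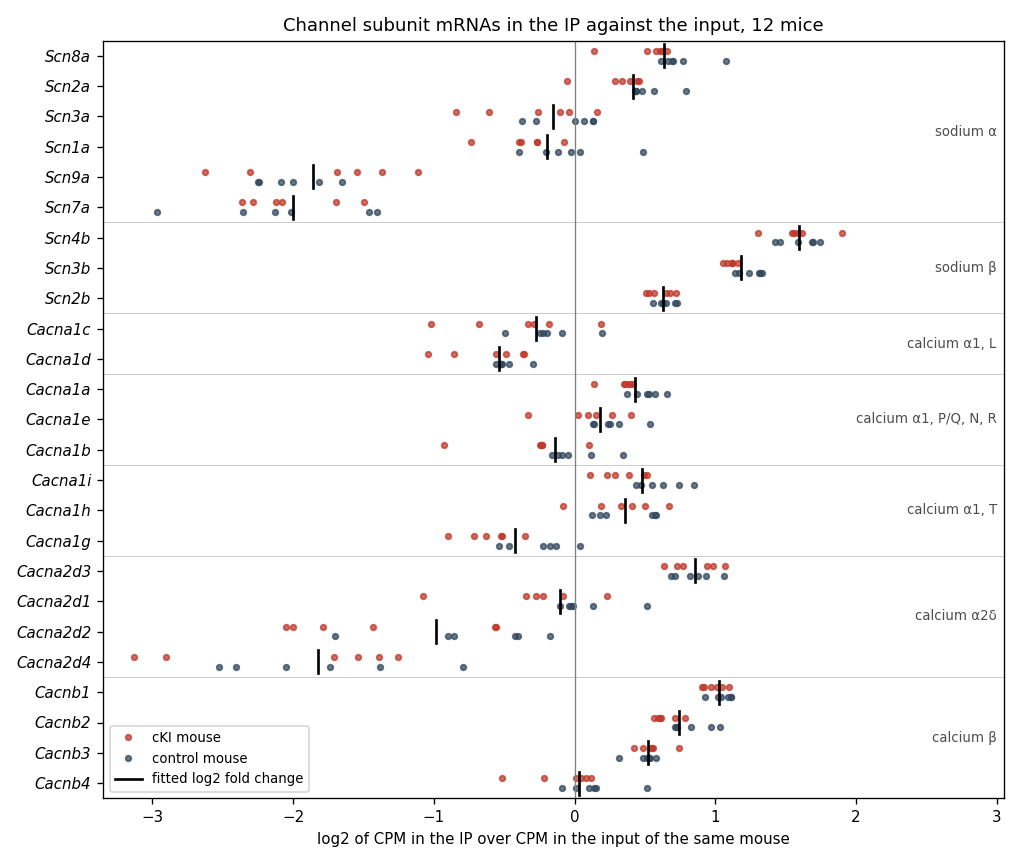
Log2 of a gene's CPM in the IP over its CPM in the input of the same mouse (horizontal axis) for 25 channel genes grouped by family; each dot is 1 of 12 mice (red cKI, blue-grey control) and each black bar is the fold change fitted by edgeR. Scn4b and Scn3b lie to the right of 1 in all 12 mice, and Scn7a and Scn9a lie to the left of -1 in all 12.

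Among the sodium pores, Scn8a, the main channel of the mature axon initial segment and nodes, had a lowest, median and highest level of 573, 752 and 808 CPM in IPs, against 366, 492 and 521 CPM in inputs. The ranges did not overlap, and the IP was higher in 12 of 12 mice (log2 fold change 0.64, SE 0.05, adjusted p 8.08e-12). Scn2a, which serves axons of excitatory neurons, had 367, 474 and 502.9 CPM in IPs, against 285, 352 and 381 CPM in inputs. It was higher in 11 of 12 mice (log2 fold change 0.42, SE 0.04, adjusted p 8.15e-10), with some overlap. Scn1a, best known for inhibitory neurons, had 79.4, 113 and 139 CPM in IPs, against 99.0, 130.3 and 137 CPM in inputs. It was lower in 10 of 12 mice, and the ranges overlapped widely (log2 fold change -0.19, SE 0.06, adjusted p 0.00647). Scn3a, the channel of the embryonic brain, averaged 54.9 ± 9.91 CPM in IPs and 60.9 ± 6.18 CPM in inputs (SD, n = 12 each). It did not pass, at -0.15 (adjusted p 0.113), but was -0.23 (adjusted p 0.0198) with DESeq2's size factors.

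The sparse pores Scn7a and Scn9a moved most in the family. Scn7a encodes the atypical channel Nax, a sensor of sodium outside the cell, and Scn9a a channel of peripheral sensory and sympathetic neurons. Scn7a had 0.425, 0.840 and 1.30 CPM in IPs, against 2.84, 3.33 and 5.25 CPM in inputs (log2 fold change -2.00, SE 0.12, adjusted p 1.11e-13). Scn9a had 0.658, 0.786 and 1.46 CPM in IPs, against 2.75, 3.12 and 4.11 CPM in inputs (log2 fold change -1.86, SE 0.12, adjusted p 1.78e-12). Both were lower in 12 of 12 mice, with no overlap. The skeletal muscle channel Scn4a and the nociceptor channels Scn10a and Scn11a had no library above 8 counts and were not tested. Scn4a averaged 0.145 CPM in IPs and 0.0527 CPM in inputs, Scn10a 0.0234 CPM in IPs and 0.0246 CPM in inputs, and Scn11a 0.0698 CPM in IPs and 0.0501 CPM in inputs, where 3 counts correspond to 0.0734 to 0.111 CPM.

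Scn7a and Scn9a lie close together on chromosome 2. Their 250 bases before the RefSeq gene start, in the gene's own direction from build GRCm38.p6, are shown because these pores had the lowest IP-to-input ratios among the sodium channel genes; capitals mark the GC box GGGCGG or its reverse complement. Scn7a lies at chr2:66784911-66785160, minus strand, and Scn9a at chr2:66634963-66635212, minus strand.
Scn7a: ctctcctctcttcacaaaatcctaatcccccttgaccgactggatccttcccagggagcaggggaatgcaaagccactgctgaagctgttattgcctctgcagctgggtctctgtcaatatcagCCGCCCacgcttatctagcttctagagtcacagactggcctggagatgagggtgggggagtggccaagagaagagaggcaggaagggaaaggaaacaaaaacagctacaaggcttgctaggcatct
Scn9a: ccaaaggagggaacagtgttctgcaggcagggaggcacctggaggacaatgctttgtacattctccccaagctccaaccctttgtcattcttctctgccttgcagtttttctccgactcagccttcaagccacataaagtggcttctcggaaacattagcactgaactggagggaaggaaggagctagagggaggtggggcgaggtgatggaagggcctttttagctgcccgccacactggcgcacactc

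The windows have a GC content of 53.2% for Scn7a and 54.4% for Scn9a, against a median of 52.4% over all 32851 RefSeq windows of this length, and Scn7a holds 1 GC box. RefSeq gave 33 such windows for 23 of the 31 genes. The GC box, searched on both strands, was in 12 of the 33 and in 32.7% of all windows, and the TATA box TATAAA, searched on the gene strand, was in 2 and in 7.59%. The E-box CAGATG was in 4 windows and in 14.4% of all. The cAMP response element TGACGTCA was in none and in 1.55% of all, and the left part of the neuron-restrictive element, TTCAGCACC, was in none and in 0.301%; both, like the E-box, were searched on both strands. A match describes letters in the window and no more.

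As shares of the counts over all sodium pores within a library, Scn8a made up 54.0 ± 0.992% in the IP and 46.8 ± 0.780% in the input (SD, n = 12 mice). Its share was higher in the IP by 7.17 points on average and in 12 of 12 mice (exact two-sided sign-flip permutation test over mice, p = 0.000488, the smallest that 12 pairs can give). The same test was run on all 31 shares and this p is not adjusted over them. With Benjamini-Hochberg adjustment over the 31 it is 0.000756. Scn1a, Scn3a, Scn7a and Scn9a gave the same p with lower shares in the IP in 12 of 12 mice, so it does not single out Scn8a. The other shares are given as values. Scn2a held 33.6 ± 0.581% in the IP and 33.9 ± 0.788% in the input, Scn1a 8.04 ± 0.872% in the IP and 12.3 ± 0.459% in the input, and Scn3a 3.98 ± 0.717% in the IP and 5.93 ± 0.235% in the input.

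**Figure D3:**
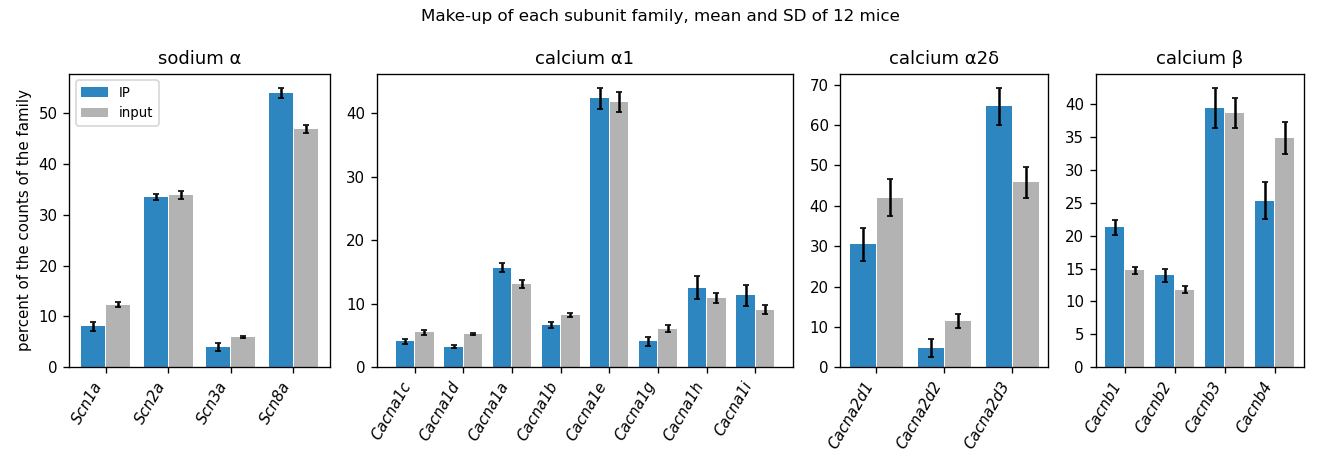
Mean percent of the counts of 4 subunit families (vertical axis) that each gene supplied in the IP (blue, left bar) and the input (grey, right bar), with the SD over 12 mice; genes at 1% or less in both fractions summed are left out. Scn8a and Cacna2d3 take more of their family in the IP, and Cacna2d1 and Cacnb4 less. Counts are not divided by transcript length, so bars of different genes are not to be compared.

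Scn2b, Scn3b and Scn4b, beta subunits of sodium channels, were higher in the IP. Scn4b, which is disulfide-linked to the pore and is known for resurgent current, had the largest rise of the 27. Its levels were 62.7, 75.4 and 95.2 CPM in IPs, against 20.1, 25.9 and 32.2 CPM in inputs (log2 fold change 1.59, SE 0.06, adjusted p 1.41e-16), and each mouse's own log2 ratio was between 1.31 and 1.90. Scn3b, a non-covalently bound partner, had 608, 664 and 717 CPM in IPs, against 264, 296 and 320.3 CPM in inputs (log2 fold change 1.18, SE 0.03, adjusted p 1.01e-20). Scn2b, the second disulfide-linked subunit, had 458, 495 and 527 CPM in IPs, against 311, 319 and 328 CPM in inputs (log2 fold change 0.63, SE 0.02, adjusted p 1.25e-17). In none of these 3 did the IP and input ranges overlap, and all 12 mice had the IP higher.

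Scn2b and Scn4b lie close together on chromosome 9, in the same direction. Their 250 bases before the start (RefSeq, GRCm38.p6) are shown because these neighbours were both higher in the IP by different folds. Scn4b lies at chr9:45138374-45138623, plus strand, and Scn2b at chr9:45117626-45117875, plus strand.
Scn4b: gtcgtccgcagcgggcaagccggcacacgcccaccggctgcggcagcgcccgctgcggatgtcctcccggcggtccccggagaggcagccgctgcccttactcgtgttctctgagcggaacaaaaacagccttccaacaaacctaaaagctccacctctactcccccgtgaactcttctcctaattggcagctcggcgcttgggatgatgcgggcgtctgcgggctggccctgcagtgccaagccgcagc
Scn2b: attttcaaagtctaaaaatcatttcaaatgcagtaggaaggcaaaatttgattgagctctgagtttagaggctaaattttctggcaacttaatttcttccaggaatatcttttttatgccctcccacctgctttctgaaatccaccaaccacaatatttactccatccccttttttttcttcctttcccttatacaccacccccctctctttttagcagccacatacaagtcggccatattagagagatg

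The windows differ in base composition, with 66.0% GC for Scn4b and 38.4% for Scn2b, and neither holds any of the 5 motifs searched.

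Both tested L-type pores were lower in the IP. Cacna1d had 35.4, 46.2 and 51.8 CPM in IPs, against 55.2, 66.1 and 73.0 CPM in inputs (log2 fold change -0.54, SE 0.05, adjusted p 1.32e-09), lower in 12 of 12 mice without overlap. Cacna1c, the main L-type pore of heart and brain, had 38.2, 58.9 and 69.4 CPM in IPs, against 47.2, 73.1 and 77.3 CPM in inputs (log2 fold change -0.27, SE 0.09, adjusted p 0.00959); it was lower in 10 of 12 mice and the ranges overlapped. Cacna1f, the pore of photoreceptor terminals, averaged 0.0231 CPM in IPs and 0.0782 CPM in inputs and was not tested.

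Of the pores that drive transmitter release, Cacna1a (P/Q-type) had 185, 221 and 241 CPM in IPs, against 148, 166 and 173 CPM in inputs, with no overlap (log2 fold change 0.43, SE 0.03, adjusted p 1.68e-11). Cacna1e (R-type) had 474, 604 and 661 CPM in IPs, against 387, 528 and 596 CPM in inputs, with wide overlap (log2 fold change 0.18, SE 0.05, adjusted p 0.00220). Cacna1b (N-type) averaged 93.8 ± 11.8 CPM in IPs and 103 ± 9.57 CPM in inputs, and its fold change of -0.14 (adjusted p 0.0507) did not pass. DESeq2's size factors moved Cacna1e to 0.11 (adjusted p 0.0518) and Cacna1b to -0.21 (adjusted p 0.00479). The 3 low-threshold T-type pores split. Cacna1i, a T-type pore of forebrain and thalamus, had 128, 156 and 198 CPM in IPs, against 107, 111 and 127 CPM in inputs, higher in 12 of 12 mice (log2 fold change 0.48, SE 0.04, adjusted p 6.20e-11). Cacna1h had 144, 176 and 231 CPM in IPs, against 125, 136 and 153 CPM in inputs, higher in 11 of 12 (log2 fold change 0.36, SE 0.05, adjusted p 1.78e-06). Cacna1g, the T-type pore of thalamic relay neurons, had 42.7, 57.3 and 76.6 CPM in IPs, against 65.9, 75.1 and 81.8 CPM in inputs, lower in 11 of 12 (log2 fold change -0.42, SE 0.05, adjusted p 1.75e-08). As a share of all calcium pore counts, Cacna1a was 15.7 ± 0.699% in the IP and 13.1 ± 0.632% in the input, Cacna1i 11.3 ± 1.59% in the IP and 9.07 ± 0.718% in the input, and Cacna1d 3.23 ± 0.202% in the IP and 5.27 ± 0.148% in the input.

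The alpha2delta subunits, which help carry channels to the surface, moved apart from each other. Cacna2d3 had 167, 198 and 220.0 CPM in IPs, against 101, 107 and 114 CPM in inputs, with no overlap (log2 fold change 0.86, SE 0.04, adjusted p 8.38e-16). Cacna2d1, a target of gabapentin, averaged 92.0 ± 15.2 CPM in IPs and 99.0 ± 14.7 CPM in inputs and did not pass, at -0.10 (adjusted p 0.334). Cacna2d2, the gene mutated in ducky mice, had 5.29, 16.1 and 26.5 CPM in IPs, against 21.9, 26.4 and 35.1 CPM in inputs (log2 fold change -0.98, SE 0.18, adjusted p 4.73e-05). It was lower in 12 of 12 mice, with log2 ratios of -2.05 to -0.17, although the ranges over all mice overlapped. Cacna2d4, known from the retina, had 0.156, 0.446 and 0.607 CPM in IPs, against 1.03, 1.35 and 1.90 CPM in inputs, with no overlap (log2 fold change -1.82, SE 0.15, adjusted p 1.14e-10). Cacna2d3 thus supplied 64.6 ± 4.67% in the IP and 45.9 ± 3.85% in the input of the family's counts, Cacna2d1 30.5 ± 4.07% in the IP and 42.0 ± 4.67% in the input, and Cacna2d2 4.76 ± 2.27% in the IP and 11.5 ± 1.71% in the input. Without the pair of libraries that stand apart, 25 of 27 genes passed (14 higher, 11 lower): Cacna1b at -0.18 (adjusted p 5.19e-05), Cacna2d1 at -0.15 (adjusted p 0.00456) and Scn3a at -0.21 (adjusted p 0.0189) joined the lower ones.

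Of the calcium beta subunits, which bind the pore inside the cell and set its gating and surface level, 3 were higher in the IP, with ranges that did not overlap. Cacnb1 had 135, 158 and 171 CPM in IPs, against 71.9, 76.9 and 81.6 CPM in inputs (log2 fold change 1.02, SE 0.03, adjusted p 3.92e-19), and its log2 ratios per mouse kept within 0.91 to 1.11. Cacnb2, the main cardiac form, had 88.9, 100.2 and 124 CPM in IPs, against 57.1, 62.0 and 66.4 CPM in inputs (log2 fold change 0.74, SE 0.04, adjusted p 7.96e-15). Cacnb3 had 257, 293 and 317 CPM in IPs, against 183, 205 and 222 CPM in inputs (log2 fold change 0.52, SE 0.03, adjusted p 3.52e-13). Cacnb4, the gene mutated in lethargic mice, averaged 187 ± 25.6 CPM in IPs and 182 ± 14.9 CPM in inputs and did not pass, at 0.03 (adjusted p 0.609). Its share of the family's counts was 25.3 ± 2.85% in the IP and 34.9 ± 2.46% in the input, and that of Cacnb1 21.2 ± 1.18% in the IP and 14.7 ± 0.510% in the input.

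Cacnb1 had the largest rise of the calcium channel genes, so the window before its upstream RefSeq start is shown (GRCm38.p6, chr11:98022628-98022877, minus strand). Capitals mark its 5 GC boxes.
Cacnb1: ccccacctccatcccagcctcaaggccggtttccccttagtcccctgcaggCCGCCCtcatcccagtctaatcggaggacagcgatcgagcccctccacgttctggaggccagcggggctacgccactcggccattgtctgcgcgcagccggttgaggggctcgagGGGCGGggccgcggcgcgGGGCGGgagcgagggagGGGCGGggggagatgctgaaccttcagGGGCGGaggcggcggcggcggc

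Seen in each of the 4 conditions alone, edgeR called 21 of 27 genes in naive cKI mice, 18 in cKI mice at 1 h, 19 in control mice at 1 h and 18 in naive control mice. The shares of all genes called were 73.5%, 72.1%, 70.4% and 70%, in the same order. In all 4, 16 genes passed in 1 direction. Among them Scn2a, Scn8a, Scn2b, Scn3b, Scn4b, Cacna1a, Cacna1i, Cacna2d3, Cacnb1, Cacnb2 and Cacnb3 were higher, and Scn7a, Scn9a, Cacna1d and Cacna2d4 were lower.

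Lists of partner genes were compared as well. Besides genes whose products bind these channels, they hold genes of the sodium leak channel (Nalcn, Unc79 and Unc80). They also hold Cacng genes, some of which encode AMPA receptor subunits. Counts and medians of the partners cover all listed genes that were tested, not channel-binding products alone. Of 13 sodium channel partners, 6 were higher in the IP, 4 lower and 3 did not pass, where 42.8% of all genes were higher and 43.1% lower. The ubiquitin ligase gene Nedd4l had the largest rise, with 296, 355 and 438 CPM in IPs, against 177, 217 and 229 CPM in inputs (log2 fold change 0.73, SE 0.05, adjusted p 3.15e-11). Fgf13, a fibroblast growth factor homologue that binds the pore's tail, was at 0.70 (adjusted p 7.67e-15), and Sptbn4, the spectrin of the axon initial segment, at 0.44 (adjusted p 1.45e-13). The largest falls were those of the homologue Fgf12, -0.30 (adjusted p 3.14e-07), of Unc80, a subunit of the sodium leak channel, -0.23 (adjusted p 0.00127), and of the node protein Nfasc, -0.20 (adjusted p 0.00417). Of 20 calcium channel partners tested of 21 listed, 14 were higher and 5 lower, beside the same shares of all genes. The adaptor Stac had 13.3, 18.8 and 24.6 CPM in IPs, against 3.60, 5.13 and 6.39 CPM in inputs (log2 fold change 1.85, SE 0.07, adjusted p 2.16e-17), and Rem2, a small GTPase that inhibits calcium channels, 26.7, 36.0 and 46.6 CPM in IPs, against 10.6, 12.6 and 15.9 CPM in inputs (log2 fold change 1.48, SE 0.07, adjusted p 5.06e-15). Cacng6 was the third, at 1.32 (adjusted p 4.41e-09). Other GTPases of the Rem2 family went the other way. Gem had 0.0371, 0.225 and 0.461 CPM in IPs, against 1.03, 1.78 and 2.64 CPM in inputs (log2 fold change -3.10, SE 0.20, adjusted p 1.36e-12), and Rem1 0, 0.0351 and 0.0954 CPM in IPs, against 0.194, 0.348 and 0.465 CPM in inputs. Rem1 was at or near the 3-count floor in every IP, so no fold is given for it. Cacng4, a subunit of AMPA receptors and calcium channels, was the third of the falls, at -2.08 (adjusted p 3.42e-11). The medians were 0.10 for the sodium and 0.60 for the calcium partners, beside -0.01 for all genes.

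Genotype was compared within the IP and within the input, to ask whether the eIF2α knock-in changes channel mRNA on ribosomes or in the tissue. In naive IPs, 4 of 27 channel genes were lower in cKI mice and none was higher. edgeR called 3.7% of all 15238 genes tested there, 2.5% lower and 1.2% higher. Unadjusted, 13 of 27 were under 0.05, against 22.3% of all genes. The 4 are the T-type pores Cacna1g and Cacna1i, the beta subunit Cacnb2 and the sodium pore Scn1a. Since this test picked them, the lack of overlap in their naive IPs is no separate support. How often cKI and control groups do not overlap was not counted over all genes. In naive IPs the level of Cacna1g was 46.1, 42.7 and 50.8 CPM in the 3 cKI mice, against 67.3, 76.6 and 68.6 CPM in the 3 control mice. The groups did not overlap (log2 fold change -0.61, SE 0.12, adjusted p 0.0205). At 1 h it was 48.7, 44.5 and 58.2 CPM in cKI IPs, against 56.4, 58.2 and 72.4 CPM in control IPs. These overlapped, and the fold change of -0.30 (adjusted p 0.810) did not pass.

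Cacna1i stood at 128, 130.0 and 141 CPM in naive cKI IPs, against 166, 198 and 196 CPM in naive control IPs. These did not overlap (log2 fold change -0.49, SE 0.09, adjusted p 0.0166). At 1 h the level was 135, 158 and 154 CPM in cKI IPs, against 154, 166 and 179 CPM in control IPs. These overlapped, with a fold change of -0.15 (adjusted p 0.936). Cacnb2 stood at 94.8, 88.9 and 95.3 CPM in naive cKI IPs, against 109.5, 119 and 124 CPM in naive control IPs. These did not overlap (log2 fold change -0.34, SE 0.08, adjusted p 0.0355). At 1 h the level was 94.5, 98.3 and 104 CPM in cKI IPs, against 93.8, 102 and 116 CPM in control IPs. These overlapped, with a fold change of -0.06 (adjusted p 0.985). Scn1a stood at 106, 79.4 and 93.0 CPM in naive cKI IPs, against 126, 139 and 134 CPM in naive control IPs. These did not overlap (log2 fold change -0.52, SE 0.13, adjusted p 0.0436). At 1 h the level was 108, 101 and 124 CPM in cKI IPs, against 89.2, 117 and 124 CPM in control IPs. These overlapped, with a fold change of 0.02 (adjusted p 0.998).

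**Figure D4:**
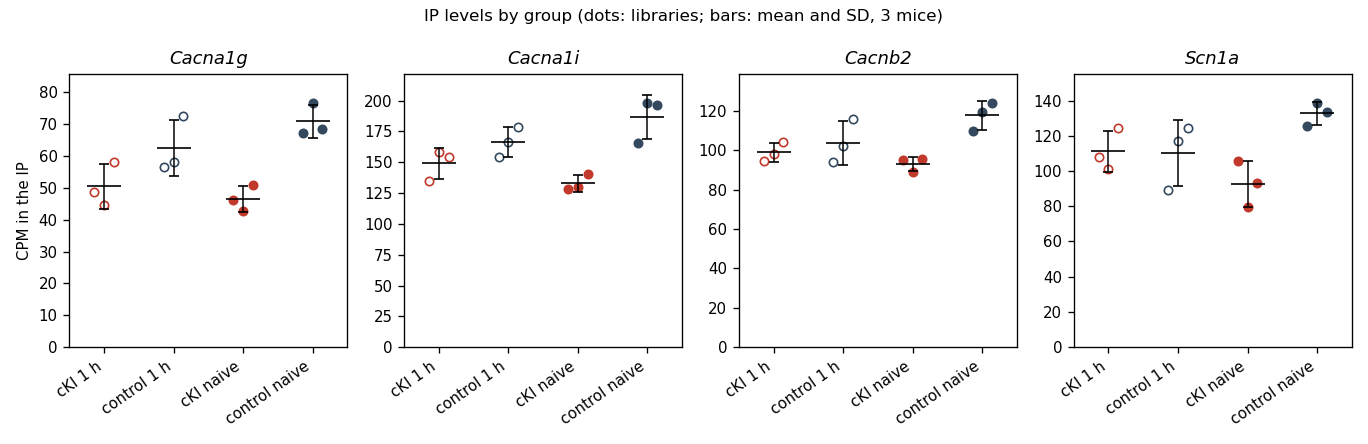
CPM in the IP (vertical axis, from 0) of Cacna1g, Cacna1i, Cacnb2 and Scn1a in the 4 groups; each dot is 1 mouse, open at 1 h and filled in naive mice, red cKI and blue-grey control, and the bar with whiskers is the mean and SD of 3 mice. In naive mice the cKI dots of each gene lie below all control dots, and at 1 h they overlap. The 4 genes were chosen because they passed in naive IPs, so their separation there is no separate support.

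Cacna1i had the smallest p of these, and its 250 bases before the RefSeq start (GRCm38.p6, chr15:80286988-80287237, plus strand) are shown for that reason. They hold none of the 5 motifs.
Cacna1i: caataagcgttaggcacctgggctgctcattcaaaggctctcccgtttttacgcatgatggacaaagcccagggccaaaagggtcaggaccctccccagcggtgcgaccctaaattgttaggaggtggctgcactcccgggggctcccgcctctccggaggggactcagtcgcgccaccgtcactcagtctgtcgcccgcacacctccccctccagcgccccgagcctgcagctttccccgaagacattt

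Averaged over both training states, Cacna1g at -0.45 (adjusted p 0.0177) and Cacna1i at -0.32 (adjusted p 0.0223) were lower in cKI IPs, which makes 2 of 27, where 1.69% of all genes were called, 1.04% lower and 0.656% higher. Cacnb2 missed at -0.20 (adjusted p 0.0883) and Scn1a at -0.25 (adjusted p 0.166). Cacna2d2 had 6.61, 6.46 and 8.79 CPM in naive cKI IPs, against 17.1, 21.4 and 16.5 CPM in naive control IPs; the groups did not overlap, but it did not pass (log2 fold change -1.33, SE 0.49, adjusted p 0.157). At 1 h it ranged from 5.29 to 18.2 CPM among cKI IPs and from 8.52 to 26.5 CPM among control IPs, a wide spread between mice of 1 group. At 1 h no channel gene passed in the IP, where edgeR called 0.0591% of all genes and DESeq2 called none of the 27 either. Only Cacna1g had an unadjusted p under 0.05 (5.56% of all genes), and the smallest p after it were those of Cacna1i, at -0.15 (adjusted p 0.936), and Scn4b, at 0.16 (adjusted p 0.967). The difference between the naive and the 1 h genotype effect was tested as an interaction and no channel gene passed (0.0131% of all genes did). With 1 h minus naive as its direction, it was 0.55 (adjusted p 0.308) for Scn4b, 0.54 (adjusted p 0.352) for Scn1a and 0.34 (adjusted p 0.391) for Cacna1i. Unadjusted, 7 of 27 were under 0.05, against 9.34% of all genes, and DESeq2 called none.

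Lane and cell makeup move with this comparison. All 3 naive cKI IPs ran in lane 5 and all 3 naive control IPs in lane 6, so lane and genotype cannot be told apart there. Only the cKI IPs at 1 h were split, 1 in lane 5 and 2 in lane 6. A lane covariate in the IPs rests on that group alone, so a call lost with it decides nothing about lane. With lane as a covariate none of the 4 passed: Cacna1g was -0.52 (adjusted p 0.728), Cacna1i -0.28 (adjusted p 0.728), Cacnb2 -0.24 (adjusted p 0.728) and Scn1a -0.45 (adjusted p 0.728). Within lane 6, which held 2 cKI and 3 control IPs at 1 h, Cacna1g was -0.26 (adjusted p 0.626), Cacna1i -0.08 (0.794), Cacnb2 -0.02 (0.947) and Scn1a 0.05 (0.924). The summed level of 5 dentate granule cell markers was 1097, 908 and 1195 CPM in naive cKI IPs, against 881, 345 and 353 CPM in naive control IPs. At 1 h it was 889.8, 349 and 521 CPM in cKI IPs, against 855, 783 and 321 CPM in control IPs, while all inputs lay between 431 and 511 CPM. The sum over 3 CA1 markers was 885 to 1221 CPM in naive cKI IPs, against 1160 to 1570.0 CPM in naive control IPs. The sum over 7 inhibitory markers was 183 to 237 CPM in naive cKI IPs, against 182 to 265 CPM in naive control IPs, which overlapped. Other lists did not overlap: 5 oligodendrocyte markers summed to 233 to 297 CPM in naive cKI IPs, against 342 to 357 CPM in naive control IPs. Oligodendrocyte precursor markers summed to 9.21 to 10.8 CPM in naive cKI IPs, against 11.8 to 14.1 CPM in naive control IPs, and choroid plexus markers to 33.1 to 37.8 CPM in naive cKI IPs, against 41.8 to 57.2 CPM in naive control IPs. Of the choroid plexus markers, Kl was higher in the IP in 12 of 12 mice (median log2 ratio 1.01). Ttr was lower in 12 of 12 (median -4.37), and Folr1 had a ratio in only 9 mice. Their sum in IPs therefore does not stand for choroid plexus alone. The part of these markers in the result was not tested. Single libraries also decide calls. Without the IP of naive cKI mouse 2, Cacna1i alone passed, with Cacna1g at an adjusted p of 0.0717, Cacnb2 at 0.0900 and Scn1a at 0.122. Without the IP of naive control mouse 2 or mouse 3, none passed (Cacna1i at 0.115 and 0.0847). Without that of naive cKI mouse 3, 2 passed, and without that of cKI mouse 2 at 1 h, 7. Of the mean over training states, none passed without the IP of cKI mouse 1 at 1 h or of naive control mouse 2, and Cacna1i did not without that of naive cKI mouse 1, naive control mouse 3 or control mouse 3 at 1 h.

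In the inputs, 2 of 27 genes passed in the mean over training states, where edgeR called 3.15% of all 17232 genes, 2% lower and 1.15% higher. Cacna1h, a T-type pore, was higher in cKI inputs. In naive inputs the level was 142, 135 and 145 CPM in the 3 cKI mice, against 125, 126 and 134 CPM in the 3 control mice. At 1 h it was 137, 153 and 143 CPM in cKI inputs, against 130.3, 128 and 140.1 CPM in control inputs. Over both training states the genotypes overlapped slightly (log2 fold change 0.15, SE 0.04, adjusted p 0.0486). Without the naive control input that stands apart, 4 of 27 passed, and without that of cKI mouse 3 at 1 h, none.

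**Figure D5:**
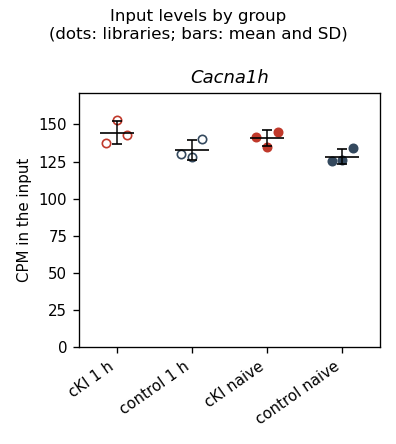
CPM in the input (vertical axis, from 0) of Cacna1h in the 4 groups; each dot is 1 mouse, open at 1 h and filled in naive mice, red cKI and blue-grey control, and the bar with whiskers is the mean and SD of 3 mice. The cKI mice are higher on average, and at 1 h they overlap the control mice.

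Cacna1h did not pass in a single training state. In naive inputs none of 27 did (0.859% of all genes), and the smallest p reported were those of Cacna1h at 0.16 (adjusted p 0.158), Cacna1d at 0.20 (adjusted p 0.183) and Cacna2d1 at 0.37 (adjusted p 0.289). These values include the naive control input that stands apart, which was the lowest input for Cacna1d and Cacna2d1. At 1 h no channel gene passed (0.267% of all genes), with Cacna2d2 at -0.34 (adjusted p 0.400), Cacna1h at 0.14 (adjusted p 0.446) and Scn7a at 0.36 (adjusted p 0.5). Unadjusted, 3 were under 0.05 in naive inputs (17.6% of all genes) and 5 at 1 h (8.98%); DESeq2 called 1 in naive inputs and none at 1 h. The interaction called none (0.0348% of all genes), nor did DESeq2, and 0 were under an unadjusted 0.05 (4.82%); the smallest p reported were those of Scn4b at 0.27 (adjusted p 0.989), Cacna2d3 at 0.09 (adjusted p 0.989) and Cacnb1 at 0.08 (adjusted p 0.989). Lane moves with genotype here too: lane 4 held all 6 cKI inputs and 2 naive control inputs, and lane 5 the other 4 control inputs. With lane as a covariate, which rests on the naive control inputs split between lanes, Cacna1h was 0.23 (adjusted p 0.126) and did not pass. Within lane 4, 3 naive cKI against 2 naive control inputs gave 0.20 for Cacna1h (adjusted p 0.154). Of these 2 control inputs, 1 is that of naive control mouse 2, which stands apart. Leaving out 1 input at a time, Cacna1h lost its call in 10 of 12 cases, at adjusted p of 0.0574 to 0.152, and kept it only without naive control mouse 2 or mouse 3. The summed level of 5 oligodendrocyte markers was 3141 to 3857 CPM in cKI inputs, against 3544 to 5034 CPM in control inputs. That of 7 inhibitory neuron markers was 686 to 755 CPM in cKI inputs, against 759.6 to 846 CPM in control inputs, with no overlap. CA1 markers did not overlap either, at 362 to 392.5 CPM in cKI inputs, against 395 to 449 CPM in control inputs. Oligodendrocyte precursor markers summed to 175 to 198 CPM in cKI inputs, against 195.5 to 253 CPM in control inputs, and endothelial markers to 54.3 to 65.6 CPM in cKI inputs, against 63.2 to 82.4 CPM in control inputs. Other lists had higher medians in cKI inputs, with overlapping ranges. Excitatory neuron markers summed to 5536 to 6206 CPM (median 5982) in cKI inputs, against 5283 to 6057 CPM (median 5585) in control inputs. Microglia markers summed to 199 to 238 CPM (median 225) in cKI inputs, against 189 to 219 CPM (median 201) in control inputs. The part of these lists in the result was not tested.

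Partner genes were compared between genotypes as well. Fgf11, a homologue of the Fgf13 kind, had 26.1, 25.6 and 28.0 CPM in naive cKI IPs, against 39.8, 46.5 and 48.0 CPM in naive control IPs, without overlap (log2 fold change -0.76, SE 0.09, adjusted p 0.00270). In the mean over training states it was at -0.43 (adjusted p 0.0103). That mean includes the naive IPs, so it is not a separate result. Cacng3, an AMPA receptor subunit, at -0.36 (adjusted p 0.0328) and the adaptor Stac2 at -0.38 (adjusted p 0.0468) were lower in naive cKI IPs as well. Of 13 sodium partners 1 passed there, and of 18 calcium partners tested 2, where 3.7% of all genes passed. In the inputs Rimbp2, which ties calcium channels to release sites, was higher in naive cKI mice, with 162, 173 and 165 CPM, against 142, 131 and 143 CPM in naive control inputs (log2 fold change 0.30, SE 0.05, adjusted p 0.0176). In the mean, which includes the naive inputs, Rimbp2 was at 0.21 (adjusted p 0.0104), and the calmodulin gene Calm3 at -0.14 (adjusted p 0.0349). These carry the same lane layout.

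The genotype difference was also taken as a difference in the IP-to-input ratio. It was fitted on the group means, without pairing the IP and input of a mouse. No channel gene passed, where 0.0229% of all genes did, and DESeq2 called none. The smallest p reported were those of Cacna1g at -0.36 (adjusted p 0.218), Cacna1i at -0.28 (adjusted p 0.218) and Scn2a at -0.21 (adjusted p 0.261). Unadjusted, 9 of 27 were under 0.05, against 15.6% of all genes, and the median was -0.16 over the 27 and 0.02 over all genes. For Cacna1g the log2 ratio of IP to input was -0.90 to -0.35 in the 6 cKI mice and -0.54 to 0.04 in the 6 control mice. For Cacna1i it was 0.11 to 0.51 in cKI mice and 0.44 to 0.85 in control mice. These overlapped in both genes. Without the pair of libraries that stand apart, none passed either, and the other values of this comparison include both.

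Fear conditioning was compared by setting mice at 1 h against naive mice of the same genotype. Lane moved with training in 2 of the sets. The naive cKI IPs all ran in lane 5, and those at 1 h ran 1 in lane 5 and 2 in lane 6. Control inputs at 1 h all ran in lane 5, and the naive ones ran 2 in lane 4 and 1 in lane 5. All control IPs ran in lane 6 and all cKI inputs in lane 4. No channel gene passed in any of the 6 comparisons or in the ratio, by edgeR or by DESeq2, though a fit on the 6 control IPs alone called 1 lower at 1 h. In cKI IPs edgeR called 0.0459% of all genes, and the smallest p reported were those of Cacnb1 at 0.21 (adjusted p 0.304), Cacna2d4 at -1.10 (adjusted p 0.329) and Cacna2d3 at 0.20 (adjusted p 0.395); 3 were under 0.05 unadjusted (12.8% of all genes). In control IPs it called 0.328%, with Scn4b at -0.33 (adjusted p 0.283), Cacnb4 at -0.26 (adjusted p 0.432) and Cacnb2 at -0.18 (adjusted p 0.447), and 3 under 0.05 unadjusted (10.3%). Scn4b, named there first, stood at 72.9, 74.4 and 67.4 CPM in control IPs at 1 h, against 86.6, 87.9 and 94.8 CPM in naive control IPs, which did not overlap. In cKI IPs it stood at 66.0, 95.2 and 77.0 CPM at 1 h, against 65.7, 76.5 and 62.7 CPM in naive mice, which did. The mean over genotypes in IPs called 0.387%, with Cacnb1 at 0.12 (adjusted p 0.346), Cacna2d4 at -0.64 (adjusted p 0.400) and Scn7a at 0.41 (adjusted p 0.460) and 2 under 0.05 unadjusted (13%).

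Inputs gave the same count of none. In cKI inputs 0.0174% of all genes were called, and the smallest p reported belonged to Scn7a at 0.40 (adjusted p 0.920), Cacnb1 at 0.12 (adjusted p 0.920) and Cacna2d4 at -0.30 (adjusted p 0.994), with 2 under 0.05 unadjusted (5.27%). In control inputs 0.737% were called, with Scn4b at -0.30 (adjusted p 0.341), Cacna2d4 at -0.41 (adjusted p 0.426) and Cacna1g at 0.12 (adjusted p 0.489) and 2 under 0.05 unadjusted (11.7%). For the mean over genotypes 0.818% were called, with Cacna2d4 at -0.36 (adjusted p 0.314), Scn7a at 0.27 (adjusted p 0.334) and Cacnb1 at 0.08 (adjusted p 0.375) and 3 under 0.05 unadjusted (12.2%). The change of the IP-to-input ratio after conditioning called 0.00573% of all genes; the smallest p reported were those of Cacna2d3 at 0.13 (adjusted p 1.00), Cacna1h at -0.12 (adjusted p 1.00) and Cacna2d2 at 0.40 (adjusted p 1.00), and 0 of 27 were under 0.05 unadjusted (4.13%). No partner gene passed in a training comparison.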

How the data were processed

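Hippocampal RNA was sequenced from 12 mice as a RiboTag IP and an input each, from poly(A) libraries made with a directional kit, per the labels' protocols. The deposited table holds raw counts of reads per gene for each library, with no normalization. Cutadapt, Bowtie and DESeq2 (1.26.0) were used by the authors, per the submitters' processing notes, which give no roles. For the counting, genome build and strand setting were not given in the sources used here, so reads of antisense partners and near-identical copies may be shared.

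The members and lists were chosen with earlier results of these data known. Counts were filtered with filterByExpr, scaled by TMM and tested with the robust quasi-likelihood test of edgeR (4.0.16, R 4.3.3) across all genes, with Benjamini-Hochberg adjustment at 0.05. IPs, inputs and all 24 libraries were fitted separately. Adjusted p-values in the text come from these fits and errors of fold changes are standard errors. DESeq2 (1.42.0) was an alternative. The edgeR tests were also run on counts simulated with the fitted spread, without effects of lane, mouse or outlying libraries. That check therefore does not bear on those limits. Full values go to the channel genes with the 10 largest rises and falls between IP and input, those that passed in a genotype or training comparison, the 3 with the smallest p where none did, and Eif2s1; of the partners, to the 3 largest changes in each direction between IP and input and those that passed elsewhere. Results of 2 of the 27 genes are not reported here, and lists of the smallest p leave them out. Lanes were read from the labels' library names. IP and input of 1 mouse pair by the labels' mouse numbers: their deviations correlated at -0.093 to 0.441, over 0.1 in 8 of 12 mice. Promoter windows are from RefSeq (GRCm38.p6). Transcript lengths and protein sequences were not used here.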

Additional observations from a re-analysis of the deposited data

How the results depend on the processing

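Between IP and input, 22 of 27 channel genes passed in the main test; DESeq2's Wald test gave 24, DESeq2's size factors 23, no filter 24, the mouse as a block 22 and lane as a covariate, chosen after seeing the data, 16, and leaving out 1 library at a time gave 22 to 23. No direction of a called gene reversed under any alternative run. In naive IPs the count of 4 became 7 with DESeq2's Wald test, 0 with lane as a covariate, 6 with only the groups compared, 6 with a replicate block, 3 with no filter, and 0 to 7 leaving out 1 library at a time. In the mean over training states of IPs the count of 2 became 4 with DESeq2's Wald test, 3 with a replicate block and 0 with lane, and 0 to 2 leaving out 1 library at a time. In the mean over inputs the count of 2 became 3 with DESeq2's Wald test, 1 with DESeq2's size factors, no filter or a replicate block, 0 with lane, and 0 to 4 leaving out 1 library at a time. In naive inputs the count of 0 became 1 with DESeq2's Wald test or no filter and 0 to 1 leaving out 1 library at a time, at 1 h in inputs it became 4 with only the groups compared, and for training in control IPs 1 with only the groups compared. The Eif2s1 difference in inputs was 0.34 with lane as a covariate (adjusted p 0.0791) and 0.26 to 0.31 leaving out 1 library at a time. The Scn8a share difference was 7.08 to 7.27 points leaving out 1 mouse at a time. The labels give no shared animal or batch to libraries with the same replicate number in different groups. Same-numbered inputs correlated at -0.215 to 0.146, 1 of 18 pairs over 0.1, and IPs at -0.30 to 0.522, 9 of 18 over 0.1. All 3 pairs between 1 h and naive cKI IPs were over 0.1 (0.178, 0.381 and 0.127), and the replicate block called 0 channel genes there, as did the test without it. A version of the shares divided by length was not run, since no lengths were used. The cause of these changes was not tested.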
